A study of Homo sapiens with 9 samples.

Results

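The difference between the 2 negative controls of the study was measured here: HCT116 cells carrying the antisense sequence of CRLM1 (labelled Antisense control, Anti below) against HCT116 cells carrying the free plasmid (labelled Empty control, Ctrl below). All 3 samples of each group were taken by their labels, which makes 6 of the 9 samples of the series. HCT116 is an epithelial line from a human colorectal carcinoma. Per the labels both are control lines prepared in parallel with a line of stable CRLM1 overexpression (CRLM1-OE, 3 samples), whose levels are given below for some genes with no test. The CRLM1-OE vector was a lentiviral pTSB plasmid with GFP and puromycin resistance, packaged in HEK293T cells, and the sources used here do not say whether the control lines were made the same way. Whether each line is 1 clone or a pool, and how far the antisense insert extends, is not given in the sources used here. Each group is 1 line with 3 biological replicates, so the insert and any other difference between the lines cannot be told apart, and every p-value measures the spread between these replicates only.

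RNA labelled as polyadenylated was sequenced as pairs of 151 nt, and total counts per sample ran from 34947060 to 44514692 in Ctrl and from 35097560 to 40101107 in Anti. At these depths 3 counts, the floor used below for CRLM1 in Ctrl, correspond to at most 0.0858 CPM (counts scaled to library size). This floor covers counting error only, and the test took every gene with at least 1 count. Mitochondrially encoded genes took 6.39% to 6.54% of the counts in Ctrl and 7.17% to 7.28% in Anti. Between 22833 and 23278 genes had a count in a Ctrl sample and between 23321 and 23601 in an Anti sample. Of 8 epithelial marker genes all were detected, and EPCAM, KRT8, KRT18 and CDH1 were abundant. The summed counts of the 6 endothelial markers were 21 to 26 in Ctrl and 18 to 34 in Anti. Those of the 7 leukocyte markers were 177 to 216 and 164 to 176, with CD68 as the main source and CD3E not listed. Those of the 8 fibroblast markers were 314 to 428 and 383 to 389, nearly all from COL1A1, with COL1A2 at 0 in both groups and LUM and FAP not listed. None of these markers passed the test, and 3 of the epithelial markers were lower in Anti, KRT19 by the most (log2 fold change -0.58).

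Cells carry proteins that detect foreign or double-stranded RNA, such as the helicase DDX58 (RIG-I), and that switch on type I and type III interferon genes. Interferon in turn induces a large family of antiviral genes through a promoter motif, the interferon-stimulated response element (ISRE), and the IFIT genes can also be switched on directly by the sensor pathway. Colorectal cancer cells also run a high rate of glycolysis, whose enzymes are targets of hypoxia-inducible factor, and hold a sterol pathway governed by the SREBP factors. The gene lists below cover these processes, the cell cycle and the stress responses.

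CRLM1 (LINC01767, listed as RP4-710M16.2), the long noncoding RNA under study, checks the labels first. It had 0 counts in each Ctrl sample and 1951, 1777 and 1540 counts in the Anti samples, or 78.5, 76.6 and 70.9 FPKM (fragments scaled to exon length and library size). All Anti samples were thus far above all Ctrl samples. The Anti level was at least 543-fold higher than the Ctrl floor of 3 counts in the shallowest library. The strand of these reads was not recorded in the counts, so sense and antisense RNA of the gene cannot be told apart. The gene lies on the forward strand of GRCh38 at chr1:56414918-56417137. The primers with which the sense clone was made, shown because they bound the stretch that the vector can hold, match chr1:56414963-56414983 (forward) and chr1:56415940-56415966 (reverse):
forward primer: accaggtacaaaatcccctgg
reverse primer: tggcttgaacaataaaaagagtttatt

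The neighbour PPAP2B, a lipid phosphatase on the reverse strand, had 1.42, 1.39 and 0.98 FPKM in Ctrl and 1.49, 1.43 and 1.22 FPKM in Anti. The groups overlapped, and its log2 fold change was 0.03 ± 0.11 (SE) with an adjusted p of 0.874.

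Across the transcriptome the 2 controls differed in many genes, but mostly by little. The counts were compared with edgeR's quasi-likelihood test over 29714 genes, with Benjamini-Hochberg adjustment. At an adjusted p of at most 0.05, 3406 genes were higher in Anti (11.5% of those tested) and 3635 lower (12.2%). Among the 11623 genes whose counts averaged 100 or more, where the test reaches furthest, these shares were 25.3% and 28.9%. The median size of the change among the latter significant genes was 0.26 on the log2 scale, and their upper quartile was 0.37. With a fold change of at least 2 in addition, the rule for a called gene, 203 genes were called higher (0.683%) and 113 lower (0.38%). Of these 316 called genes 148 had a mean count under 10, and only 15 averaged 100 counts or more, of which 11 were higher (0.0946% of the genes at that level) and 4 lower (0.0344%).

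The direction of small changes depends on the scaling. With total counts in place of TMM factors, the median log2 fold change of these 11623 genes moved from -0.0067 to 0.10. The called genes then split into 295 higher and 71 lower, and those at an adjusted p of at most 0.05 alone into 5500 and 2029. Changes below are relative to the TMM scale, on which the median over all genes tested was 0.0047, and the deposited FPKM values lie on the other scale.

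**Figure D1:**
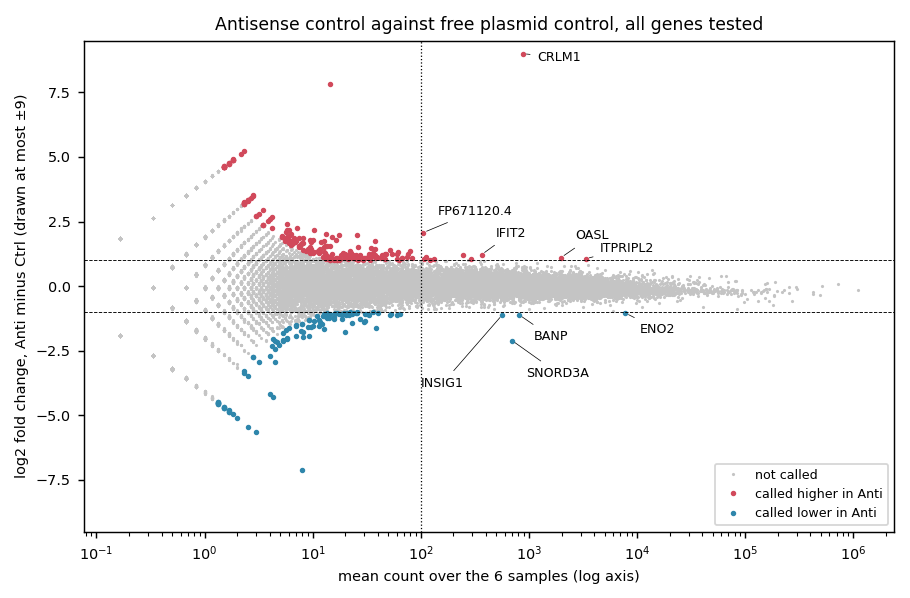
Log2 fold change of Anti against Ctrl (vertical axis, values beyond 9 drawn at 9) against the mean count over the 6 samples (log axis) for all 29714 genes tested. Red and blue points are genes called higher or lower, dashed lines mark a 2-fold change, and right of the dotted line at 100 counts only 15 genes are called, with CRLM1 at the top.

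The antiviral IFIT genes were the leading group among the abundant called genes. IFIT1, an RNA-binding protein that blocks translation of foreign RNA, had 0.76, 0.65 and 0.75 FPKM in Ctrl and 1.78, 1.69 and 1.89 FPKM in Anti. IFIT2, its partner in the same complex, had 1.44, 1.39 and 1.37 FPKM in Ctrl and 3.48, 3.37 and 3.60 FPKM in Anti. IFIT3, which stabilizes IFIT1, had 1.48, 1.81 and 1.59 FPKM in Ctrl and 3.42, 3.73 and 3.50 FPKM in Anti. In each of these genes every Anti sample was above every Ctrl sample, by more than the spread within either group. The fold changes were 2.32 for IFIT1, 2.33 for IFIT2 and 2.06 for IFIT3, with adjusted p-values of 1.17e-29, 3.1e-41 and 1.17e-25.

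OASL, an antiviral relative of the 2'-5' oligoadenylate synthetases, was the most abundant of the called interferon genes. In Ctrl it was at 8.59 ± 0.548 FPKM, and Anti had 19.7 ± 0.760 FPKM (SD, n = 3 per group), a fold change of 2.16 (adjusted p = 1.2e-161). IFI44, a further interferon-induced gene, was lower in level, with 0.48, 0.54 and 0.36 FPKM in Ctrl and 1.30, 1.17 and 1.22 FPKM in Anti. Its groups did not overlap, and its log2 fold change was 1.33 ± 0.20 (SE, adjusted p = 4.9e-10). CMPK2, a nucleotide kinase induced by interferon, had a log2 fold change of 1.05 ± 0.29 (SE, adjusted p = 0.00188) at a mean count of 26.

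The 38 tested genes of the interferon-induced list had a median log2 fold change of 0.41, against 0.0047 over all genes tested. In 19 of them the level rose and in 4 it fell at an adjusted p of at most 0.05, and 6 of the 19 were called. Over all genes tested, 11.5% rose, 12.2% fell and 0.683% were called higher. Among genes averaging 100 counts or more, the level of 26 of these 38, 25.3% rose and 28.9% fell. Besides those named, DDX60 (0.85), SAMD9 (0.77), OAS1 (0.63), HERC5 (0.62), BST2 (0.53) and ISG15 (0.46) rose. The classical targets MX1 (-0.08, adjusted p above the threshold) and IFI6 (0.07) did not pass the test. The transmembrane restriction factors went the other way: IFITM1 fell from 2.91 ± 0.202 to 1.72 ± 0.339 FPKM (SD, n = 3 per group; log2 fold change -0.85), with IFITM2 at -0.56 and IFITM3 at -0.42. IRF7, a factor that amplifies interferon transcription, fell as well (-0.52). The list was therefore not uniform.

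Among 16 RNA sensors and interferon genes 7 rose and 1 fell, with a median of 0.25, beside 11.5% and 12.2% of all genes tested. For genes averaging 100 counts or more, the level of 9 of these 16, the shares were 25.3% and 28.9%. DDX58 (RIG-I), the sensor of RNA with a triphosphate end, had 1.84, 1.90 and 1.80 FPKM in Ctrl and 3.49, 3.57 and 3.56 FPKM in Anti. Its groups were widely apart, with a log2 fold change of 0.85 ± 0.08 (SE, adjusted p = 6.48e-28). ZC3HAV1, a zinc finger protein that binds viral RNA, rose by 0.77 and TLR3, the endosomal receptor for double-stranded RNA, by 0.50, while IFIH1 (MDA5, 0.12) did not pass. Of the interferon genes themselves only IFNL1 was called, at 2, 4 and 0 counts in Ctrl and 15, 6 and 7 counts in Anti, and IFNB1 was at or near 0 in both groups. IRF3, the factor downstream of the sensors, fell by 0.37 on the log2 scale.

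Promoters of 3 called interferon genes are shown because the ISRE is the motif through which this gene family is induced. For IFIT3 and IFI44 the first of 2 annotated starts was taken. They run from 250 bases before to 50 after the start (RefSeq, GRCh38.p14), 5' to 3' on the gene's strand, with each match to the ISRE core (GAAA, any 2 bases, GAAA, or TTTC, any 2 bases, TTTC on the other strand) in capitals:
IFIT1 (chr10:89392373-89392672): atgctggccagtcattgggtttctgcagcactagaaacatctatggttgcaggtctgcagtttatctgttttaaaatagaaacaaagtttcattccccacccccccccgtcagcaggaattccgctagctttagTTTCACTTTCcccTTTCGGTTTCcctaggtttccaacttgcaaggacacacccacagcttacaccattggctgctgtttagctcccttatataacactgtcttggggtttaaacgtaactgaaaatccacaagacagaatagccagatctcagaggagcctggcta
IFIT3 (chr10:89327747-89328046): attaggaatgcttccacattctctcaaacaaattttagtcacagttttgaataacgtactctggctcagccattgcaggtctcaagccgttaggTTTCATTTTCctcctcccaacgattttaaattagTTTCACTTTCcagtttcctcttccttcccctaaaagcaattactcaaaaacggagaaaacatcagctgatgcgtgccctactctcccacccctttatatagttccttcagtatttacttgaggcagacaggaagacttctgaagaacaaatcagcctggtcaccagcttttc
IFI44 (chr1:78649539-78649838): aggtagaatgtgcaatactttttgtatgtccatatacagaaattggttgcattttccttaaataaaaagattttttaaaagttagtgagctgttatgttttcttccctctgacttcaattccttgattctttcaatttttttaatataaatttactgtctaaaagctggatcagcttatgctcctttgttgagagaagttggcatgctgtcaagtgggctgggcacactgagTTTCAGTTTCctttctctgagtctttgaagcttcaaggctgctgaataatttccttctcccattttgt

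The 2 matches of IFIT1 began 116 and 103 bases before the start, those of IFIT3 156 and 122 bases before it, and that of IFI44 18 bases before it. Of the 30 interferon-induced genes with a RefSeq promoter, 22 (73.3%) held the core in at least 1 promoter. Counted singly, 3.57% of all 35116 promoters of the same length hold it, a share not on the same basis. The list was made of known interferon-induced genes, so its share describes the list and not the difference between Anti and Ctrl. Of these 22 genes 13 rose and 2, IFITM1 and IFITM3, fell, so genes with the motif went in both directions. A match is a description of these letters, not of binding.

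Of 23 chemokines and interleukins of the epithelium 11 rose, 1 fell and 11 did not pass, and the median was 0.58. Over all genes tested, 11.5% rose and 12.2% fell. Among genes averaging 100 counts or more, the level of 10 of these 23, 25.3% rose and 28.9% fell. CXCL1 (0.58), CXCL2 (0.64), CXCL3 (0.62) and CXCL8 (0.68), the neutrophil attractants, rose by similar amounts, as did CSF1 (0.74), the growth factor of macrophages. CXCL2 had 3.66, 5.69 and 4.84 FPKM in Ctrl and 7.64, 7.89 and 7.83 FPKM in Anti, with no overlap. CCL5, a chemokine induced by virus and interferon, had 31, 9 and 26 counts in Ctrl and 50, 52 and 58 in Anti, a log2 fold change of 1.22 ± 0.25 (SE, adjusted p = 7.28e-06). Ctrl replicate 2 was its lowest sample, and without it the log2 fold change was 0.89. IL11 was the member that fell (-0.51). NF-kB subunits and feedback targets had a median of 0.02, with 7 of 18 higher and 4 lower (12 and 2 with total counts, median 0.12), and TNFAIP2 (0.63) was the highest of them. At the mean count of 100 or more that 17 of these 18 reached, 25.3% of all genes rose and 28.9% fell.

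**Figure D2:**
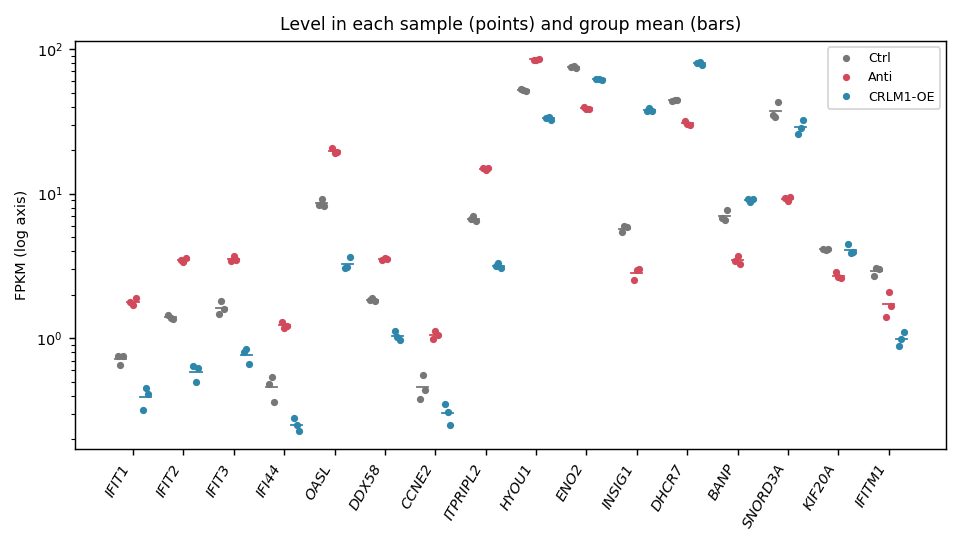
FPKM (log axis) of 16 genes in each sample of Ctrl (grey), Anti (red) and CRLM1-OE (blue), with bars at the group means. For the first 9 genes the 3 Anti points lie above the 3 Ctrl points and for the other 7 below them, and the CRLM1-OE points are given for reference only, with no test.

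Glycolysis and hypoxia genes were lower in Anti. Of 38 tested 28 fell and 4 rose, with a median of -0.30 (with total counts as the scaling, 22 fell and 7 rose, median -0.20). In all genes averaging 100 counts or more, as 37 of these did, 28.9% fell and 25.3% rose. ENO2, the gamma isoform of enolase, was the called one. It had 74.6, 76.8 and 73.9 FPKM in Ctrl and 39.9, 38.7 and 38.3 FPKM in Anti. Every Anti sample lay far below every Ctrl sample, with a log2 fold change of -1.04 ± 0.03 (SE) and an adjusted p of 1e-300, the smallest value written. ALDOC (aldolase C, -0.96), CA9 (a membrane carbonic anhydrase, -0.89), NDRG1 (-0.88), GPI (phosphoglucose isomerase, -0.79), ALDOA (-0.73) and GAPDH (-0.59) fell next. VEGFA, the vascular growth factor, rose (0.34), as did HIF1A (0.28), the inducible factor itself, and PDK1 (0.15). ADM (0.01), DDIT4 (-0.04) and HK2 (-0.05), also known hypoxia targets, did not pass. Among the 34 genes with a RefSeq promoter, 20 (58.8%) held the core of the hypoxia response element ACGTG on either strand in at least 1 promoter. Counted singly, 21.4% of all promoters hold it, a share not on the same basis as that of genes. Of these 20 genes 14 fell and 2 rose, beside 28 and 4 of all 38 tested. Whether the match goes with the direction of change was not tested. The promoter of ENO2 is shown with its match in capitals, 118 bases before the start:
ENO2 (chr12:6914330-6914629): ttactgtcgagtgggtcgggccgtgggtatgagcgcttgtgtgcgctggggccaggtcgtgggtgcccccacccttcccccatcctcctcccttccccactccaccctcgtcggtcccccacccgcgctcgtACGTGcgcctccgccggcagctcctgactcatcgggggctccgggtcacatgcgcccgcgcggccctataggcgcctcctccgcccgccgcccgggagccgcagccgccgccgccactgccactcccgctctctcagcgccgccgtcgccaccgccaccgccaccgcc

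The sterol genes were lower too. Of 20 sterol synthesis enzymes 14 fell and none rose, with a median of -0.25, and with total counts as the scaling 10 fell and none rose (median -0.14). All 20 averaged 100 counts or more, a level at which 28.9% of all genes fell and 25.3% rose. DHCR7, which makes cholesterol in the last step of the pathway, was at 43.9, 44.1 and 44.7 FPKM in Ctrl and at 31.9, 30.2 and 29.7 FPKM in Anti (log2 fold change -0.62 ± 0.03, SE). LSS, the lanosterol synthase, had the smallest value (-0.04, not past the test). INSIG1, which holds the SREBP activator in the endoplasmic reticulum and is itself a target of SREBP, was called lower. Its values were 5.39, 5.99 and 5.84 FPKM in Ctrl and 2.53, 2.97 and 3.02 FPKM in Anti, without overlap (log2 fold change -1.11 ± 0.07, SE; adjusted p = 3.07e-52). In CRLM1-OE the same gene was at 37.3, 39.3 and 37.5 FPKM and DHCR7 at 80.2, 81.8 and 77.8 FPKM. Of the 12 SREBP regulators and LDL uptake genes 6 fell, among them SREBF2 (-0.64), and SREBF1 alone rose (0.37). No match to the sterol regulatory element core TCACNCCAC was found in the INSIG1 window, nor in any promoter of 15 sterol synthesis genes. Of 9 genes of the SREBP list 1 (SREBF2) held one in at least 1 promoter, as did 1.13% of all promoters counted singly. The search took these exact letters in the promoter windows only, so a lack of matches does not show that sterol regulatory elements are absent. Other letters and other positions were not tested.

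The cell cycle genes parted by phase. Of 38 DNA replication genes 26 rose and 2 fell (median 0.28), and of 36 mitosis genes 4 rose and 21 fell (median -0.26). Nearly all of them averaged 100 counts or more, where 25.3% of all genes rose and 28.9% fell. With total counts as the scaling, 34 replication genes rose and none fell, and 5 mitosis genes rose and 18 fell. CCNE2, a cyclin of the entry into S phase, was the called member, with 0.38, 0.56 and 0.44 FPKM in Ctrl and 0.99, 1.12 and 1.05 FPKM in Anti (log2 fold change 1.12 ± 0.15, SE). FEN1 (0.71), MCM3 (0.58) and MCM10 (0.54), which serve the replication fork, also rose. CDT1 (-0.10) and TK1 (-0.08) fell slightly on the TMM scale but had positive values with total counts, and PCNA (0.03) did not pass. KIF20A, a kinesin of cytokinesis, was at 4.11, 4.09 and 4.14 FPKM in Ctrl and at 2.86, 2.64 and 2.60 FPKM in Anti, with every Anti sample lower (log2 fold change -0.70 ± 0.08, SE). PTTG1 (-0.60), CDC20 (-0.53), PLK1 (-0.50), UBE2C (-0.43) and AURKA (-0.41) fell with it, whereas ESPL1 (0.46), KIF11 (0.33) and MKI67 (0.18) rose. Cells were not sorted by phase, so a shift in the share of cells in a phase and a change in RNA per cell cannot be told apart.

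**Figure D3:**
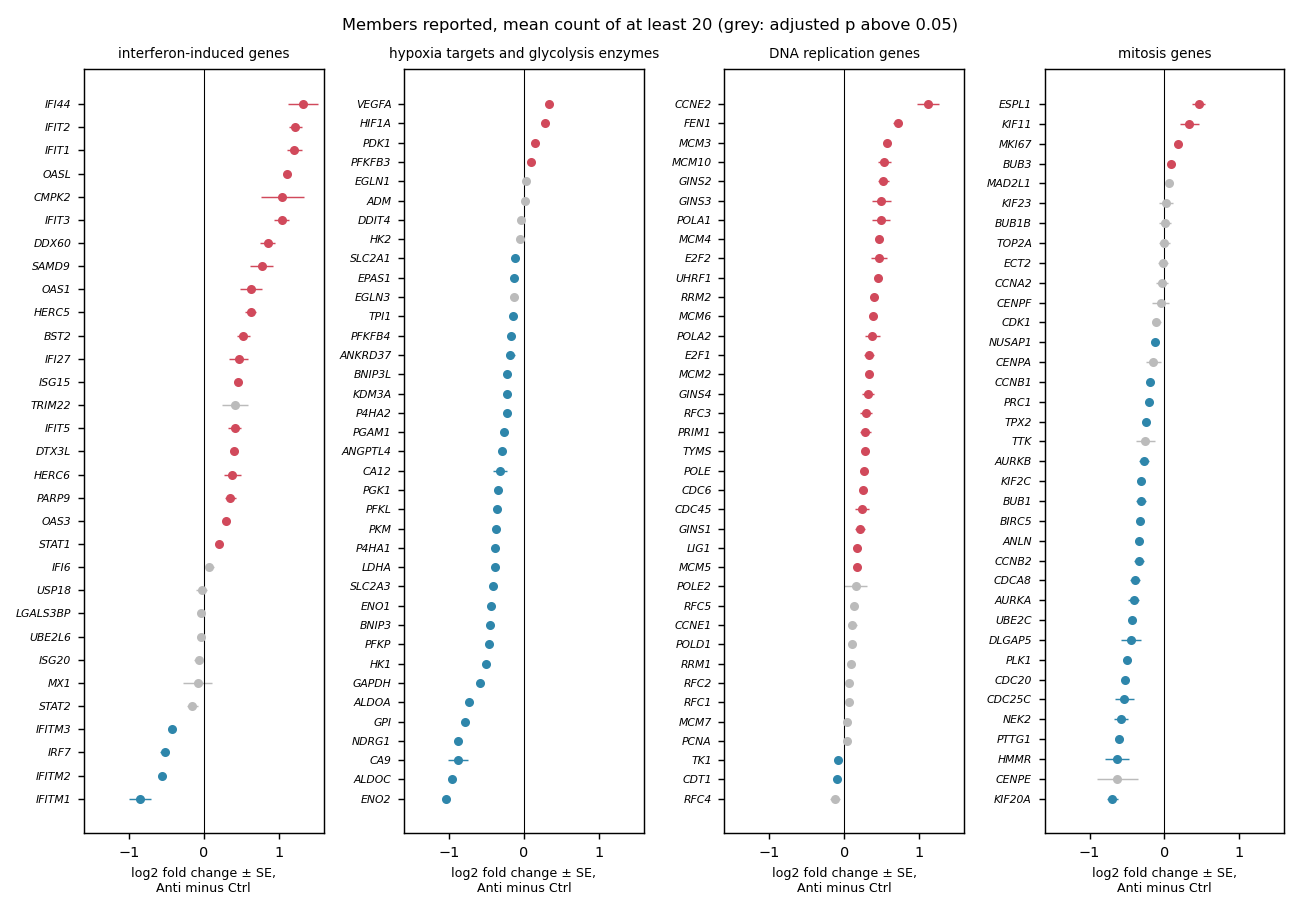
Log2 fold change ± SE of Anti against Ctrl for members of 4 lists, those reported here with a mean count of at least 20. Red points rose and blue points fell at an adjusted p of at most 0.05, grey points did not pass, and the interferon and replication lists lie mostly right of 0 while the hypoxia and mitosis lists lie mostly left of it.

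Gene lists for stress of the endoplasmic reticulum and of amino acid supply had medians somewhat above 0. The shares to set beside the counts of this paragraph are 25.3% higher and 28.9% lower, those of all genes averaging 100 counts or more. Of 20 chaperones and XBP1 targets 15 rose and 2 fell (median 0.15), led by HYOU1, a chaperone of the Hsp70 family, where Ctrl had 52.0 ± 0.545 and Anti 84.6 ± 0.195 FPKM (SD, n = 3 per group; log2 fold change 0.61). HSPA5 (BiP) rose by 0.14, and XBP1 (-0.10) fell on the TMM scale but had a positive value with total counts. Of 25 ATF4 targets 14 rose and 5 fell (median 0.20). NUPR1 (0.87), ATF5 (0.73) and SLC7A11 (0.51), the cystine transporter, were among those that rose. ATF3 (-0.54) and DDIT3 (-0.34), both also stress-induced, were among those that fell. ATF4 itself, counted in this list, did not pass (4.13e-05). Of 28 p53 targets 16 rose and 4 fell (median 0.16). SPATA18, at a mean count of 13.3, was called (1.14), TP53INP1 (0.78), FAS (0.59), MDM2 (0.56) and CDKN1A (0.16) rose, and DDB2 fell (-0.50).

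Of 16 inducible heat-shock genes 6 rose and 4 fell, with a median of 0.03 (10 and 3 with total counts, median 0.13). For all genes averaging 100 counts or more, as 13 of these did, the shares were 25.3% and 28.9%. HSPA6 was called (as was CRYAB, at few counts), with 28, 25 and 30 counts in Ctrl and 53, 76 and 98 counts in Anti, a log2 fold change of 1.39 ± 0.22 (SE, adjusted p = 1.62e-09). HSPA1A had 4.57, 4.24 and 5.00 FPKM in Ctrl and 10.2, 5.14 and 4.87 FPKM in Anti, so that 1 Anti sample stood apart and the groups overlapped. Without Anti replicate 1 its log2 fold change was 0.03 (adjusted p = 0.853). Only reads with 1 location were counted, so reads shared with the near-identical HSPA1B (-0.17) are missing from both.

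Among the remaining lists, Notch receptors, ligands and targets had 8 of 20 higher and 1 lower (median 0.28): JAG2 (0.43) and DLL1 (0.43), both ligands, rose, and the target HES1 fell (-0.61). The hnRNP and SR splicing factors, binders of nascent RNA, had 16 of 28 higher and 8 lower (median 0.12), from SRSF2 (0.72) to HNRNPC (-0.39). HNRNPK, the partner of CRLM1 under study, had 186, 183 and 177 FPKM in Ctrl and 173, 174 and 175 FPKM in Anti (log2 fold change -0.16 ± 0.02, SE), and the change did not pass with limma on the FPKM values. Lysosome and autophagy genes had 15 of 28 lower and 2 higher (median -0.13; 11 and 7 with total counts), and immediate early genes 14 of 27 lower and 3 higher (median -0.12; 8 and 8 with total counts), with ATF3 at -0.54. MHC class I genes were split, with 5 of 16 higher, ERAP1 (0.52) among them, and 5 lower, HLA-E (-0.35) among them (7 and 4 with total counts, and a median of 0.08 in place of -0.03). Beside every list of this paragraph, 25.3% of all genes averaging 100 counts or more rose and 28.9% fell. For the other lists the median lay between -0.15 and 0.12.

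**Figure D4:**
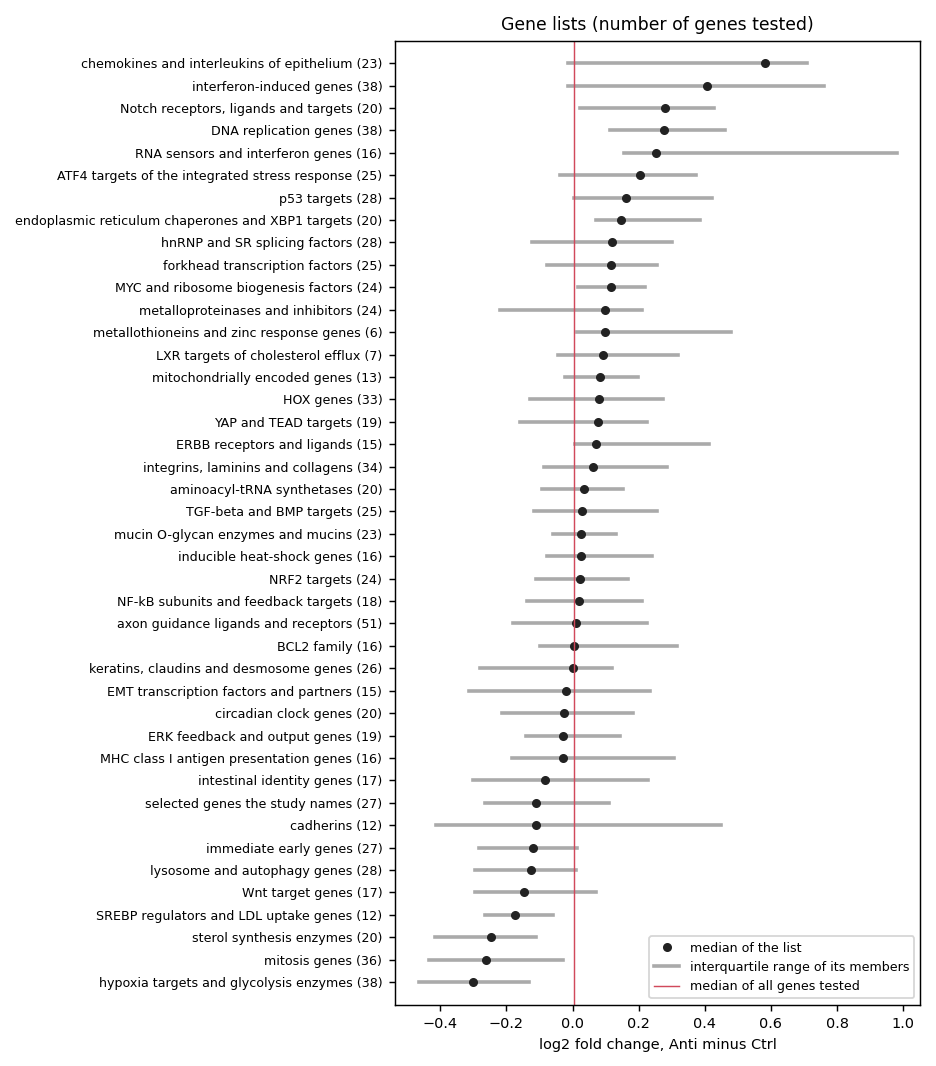
Median log2 fold change (points) and interquartile range of the members (bars) of 42 gene lists, with the number of genes tested in parentheses. The red line marks the median of all genes tested, 0.0047. Chemokines (0.58) and interferon-induced genes (0.41) lie farthest right, and hypoxia (-0.30), mitosis (-0.26) and sterol synthesis (-0.25) genes farthest left.

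Of 27 genes selected from those the study names, 7 were higher and 7 lower in Anti than in Ctrl, with a median of -0.11 (10 and 5 with total counts, median -0.0055). These shares are near those of all genes that averaged 100 counts or more, 25.3% and 28.9%. FOXD3, a forkhead repressor, was the called one (log2 fold change 1.39 ± 0.45, SE, adjusted p = 0.0114) at a mean count of 11.3. Its adjusted p was 0.0722 without Anti replicate 2 and 0.0585 under DESeq2. SNAI1, a repressor of epithelial genes, fell by 0.44 on the log2 scale, and GALNT3, an enzyme that starts mucin O-glycans, fell by 0.41. HMOX1, the heme oxygenase, rose from 19.7 ± 0.0917 to 25.2 ± 0.817 FPKM (SD, n = 3 per group; log2 fold change 0.27), beside 64.2 ± 1.08 FPKM in CRLM1-OE. CDH1 (0.04), BBC3 (0.05), GALNT1 (0.11), GALNT2 (-0.03), VIM (-0.29) and ZEB1 (-0.22) did not pass. Of these, CDH1, BBC3 and GALNT1 passed as higher in Anti under some of the alternative settings.

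Several called genes belonged to none of the lists. SNORD3A, a U3 small nucleolar RNA of ribosomal RNA processing, had the largest fall among the abundant genes. It was at 34.8, 34.1 and 42.7 FPKM in Ctrl and at 9.26, 8.91 and 9.41 FPKM in Anti, far below (log2 fold change -2.11 ± 0.07, SE; adjusted p = 1.24e-201). U3 has near-identical copies in the genome, so its reads are uncertain, and it is not a typical polyadenylated RNA. BANP, a nuclear factor that binds promoters, was at 6.83, 6.58 and 7.65 FPKM in Ctrl and at 3.41, 3.71 and 3.25 FPKM in Anti (log2 fold change -1.11 ± 0.06, SE). ITPRIPL2 rose from 6.69 ± 0.264 to 14.9 ± 0.268 FPKM (SD, n = 3 per group; log2 fold change 1.06). ZNF783, MBLAC2 and SLC35G1 were also called among the abundant genes, with log2 fold changes of 1.06, 1.06 and 1.00 at no more than 1.24 FPKM.

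In a few called genes the libraries of 1 group differed widely. FP671120.4, an entry of chromosome 21 annotated as a miRNA, had 4, 1 and 110 counts in Ctrl and 168, 207 and 142 in Anti, so Ctrl replicate 3 stood far from the others. Its log2 fold change was 2.07, and between 1.45 and 6.04 when 1 sample was left out, and DESeq2's Wald test gave an adjusted p of 0.372. FP671120.7 had 0, 0 and 48 counts in Ctrl and 0 in every Anti sample, and CH507-513H4.6 had 21, 65 and 0 counts in Anti and 0 in every Ctrl sample. Neither passed with limma, CH507-513H4.6 had an adjusted p of 0.145 under DESeq2, and DESeq2 gave FP671120.7 none. Without Ctrl replicate 3 FP671120.7 had no count left to test. In all, 44 called genes had 0 counts in every sample of a group, 22 in each direction.

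Position and length were examined over genes whose counts averaged 50 or more, 12846 by position and 12762 by transcript length. By chromosome the median log2 fold change ran from -0.0875 on chromosome 19 to 0.0725 on the mitochondrial genome, leaving out chromosomes with fewer than 10 such genes. Transcript length moved with the change: over 5 bins of equal size the median ran from -0.114 for the shortest annotated transcripts to 0.0845 for the longest. By level it ran from 0.0563 in the lowest bin to -0.0963 in the highest. With this trend removed, the median was 0.31 for interferon-induced genes, 0.60 for chemokines and interleukins, 0.28 for DNA replication, -0.22 for mitosis, -0.23 for hypoxia and glycolysis and -0.21 for sterol synthesis genes, but 0.0218 for immediate early genes. These medians leave out members under 50 counts on average, so they cover 30 of 38 interferon-induced genes and 13 of 23 chemokines and interleukins. They are thus not for the same genes as the medians of these 2 lists above. The part of transcript length in the single changes was not tested further.

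**Figure D5:**
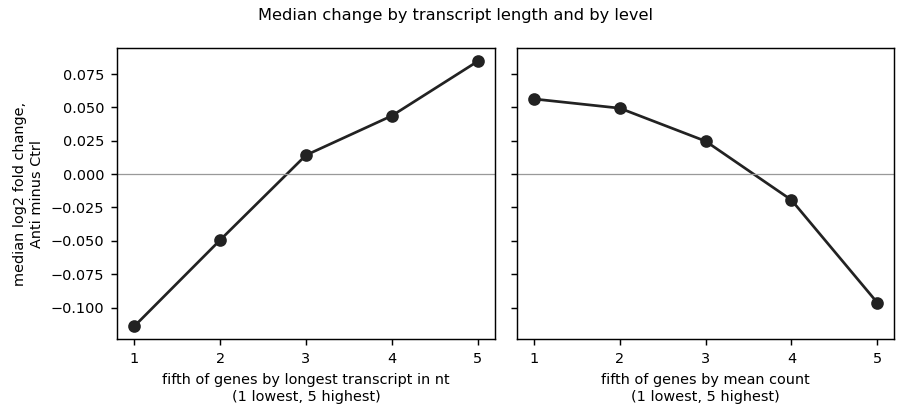
Median log2 fold change of Anti against Ctrl (vertical axis) in 5 bins of 12762 genes, ordered by the longest annotated transcript (left) and by mean count (right). The median rises from -0.114 to 0.0845 with length and falls from 0.0563 to -0.0963 with level.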

How the data were processed

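RNA of HCT116 cells, 3 Anti and 3 Ctrl samples grouped by their labels, was compared. The authors trimmed reads with the FASTX-Toolkit, dropped those under 16 nt, and placed the others on GRCh38 by TopHat2, allowing 4 mismatches. They deposited, for Gencode version 23 genes, raw counts from reads with 1 location only. The authors also deposited FPKM values, scaled for exon length and mapped fragments, to 2 decimals. Both tables list only genes that the authors call expressed. The criterion, the strand setting and whether a pair counted once are not given in the sources used here.

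The quasi-likelihood test of edgeR 4.0.16 (R 4.3.3; glmQLFit and glmQLFTest on TMM-scaled libraries, group as the only term) was run on counts of every gene with at least 1 count. Called means 2-fold or more with p no higher than 0.05 after Benjamini-Hochberg adjustment, and "rose" or "fell" needs the adjusted p alone. Alternatives were RLE factors, total counts, filterByExpr, at least 10 counts in every sample, DESeq2 1.42.0, limma 3.58.1 on log2(FPKM + 0.1) and log2(FPKM + 1), all 9 samples, the replicate block and each sample left out. The edgeR, DESeq2 and limma fits were run on simulated counts of fixed dispersion, without a trend on length or level. That run checks the code and does not measure the error of the fits on these data. The trend on length and mean count was a robust cubic surface, chosen after seeing the data. Positions come from GENCODE 44, and tables were read with pandas 2.3.3 under Python 3.11.15.

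Genes and lists were chosen with earlier results of these data known. Named by rule were CRLM1 and PPAP2B, called genes that averaged 100 counts or more and changed most (15 in each direction at most), called list members with a mean count of at least 20, 27 genes selected from those the study names, the extremes of each list among members with a mean count of at least 100, and the 3 called genes with most counts that were at 0 in a whole group. Some list members are not reported here. Other list members were chosen as examples after their values were seen.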

Additional observations from a re-analysis of the deposited data

How the results depend on the processing

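The number of calls moved with the setting. Beside 203 genes called higher and 113 lower, filterByExpr left 126 and 59, at least 10 counts in every sample 58 and 23, a mean count of at least 10 113 and 55 (an alternative chosen after seeing the data), DESeq2 82 and 36, limma on log2(FPKM + 0.1) 66 and 21, and on log2(FPKM + 1) 3 and 1. Total counts gave 71 lower (and 295 higher), and an adjusted p alone 3406 and 3635. Of the counts at an adjusted p alone, total counts moved them to 5500 and 2029, and limma gave 1011 lower with log2(FPKM + 0.1) and 1790 lower with log2(FPKM + 1). The cause of the limma values was not tested. With 1 replicate left out in turn, calls ran from 156 to 208 higher and from 84 to 92 lower, and 56.3% to 61.7% of the 316 called genes were still called. The replicate numbers did not pair the samples (correlations of same-numbered samples -0.042, -0.1 and 0.078), and the replicate block gave 141 higher and 72 lower. Of the 108 named genes at an adjusted p of at most 0.05, 80 stayed there under every alternative that tested them and 28 did not under at least 1, and no such gene changed sign. Of 20 lists with a median of at least 0.1 in size, 3 changed sign under an alternative: immediate early genes, cadherins and Wnt targets. Low counts limit the calls, since 46.8% of the called genes had a mean count under 10.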

Other observations

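Some genes outside the lists, chosen after their values were seen, also differed between the control lines. TNF, the inflammatory cytokine, had 18, 18 and 20 counts in Ctrl and 63, 38 and 41 in Anti, without overlap (log2 fold change 1.26, adjusted p = 1.69e-05). LTB, a membrane-anchored relative of TNF, had 32, 52 and 52 counts in Ctrl and 127, 101 and 86 in Anti (log2 fold change 1.12, adjusted p = 6.71e-09). MAT2A, which makes the methyl donor S-adenosylmethionine, was at 5.13, 4.85 and 4.72 FPKM in Ctrl and at 10.1, 9.68 and 9.59 FPKM in Anti (log2 fold change 0.90). DGCR8, the partner of DROSHA in miRNA processing, rose by 0.87 on the log2 scale. Below Ctrl were GEM, a small GTPase (-0.83), and CDKN1C, an inhibitor of cell cycle kinases (-0.79).

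In 30-gene windows along the genome the median log2 fold change ran from -0.24 to 0.18. Long intergenic noncoding RNAs had 54 genes called higher and 23 lower of 3182 tested, and protein-coding genes 81 and 58 of 16797. Over all genes tested 0.683% were called higher and 0.38% lower. At an adjusted p alone the numbers were 122 and 67 against 3056 and 3366. Only 648 of the noncoding RNAs averaged 10 counts or more, against 13079 of the protein-coding genes, so the 2 classes are not alike in level.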
